A study of Homo sapiens with 12 samples.

Results

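The high mobility group (HMG) genes encode small, abundant, non-histone chromatin proteins. The 10 genes described here, HMGA1, HMGA2, HMGB1, HMGB2, HMGB3, HMGN1, HMGN2, HMGN3, HMGN4 and HMGN5, were taken by name from the deposited gene tables. All 10 are among the 18969 genes listed and among the 12741 genes that had enough counts to be tested. The family was chosen by the log2 fold changes of recovery from methionine restriction against 0 h, in which several of its members were lower, so the values against 0 h are given below as a description, and where counts of edgeR calls against 0 h appear, nothing is read from them. The comparison of UNC0642 with DMSO recovery was not used in that choice and was tested.

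RNA was sequenced from HCT116, an established line of human colorectal carcinoma cells, in 3 groups of 4 libraries. The UNC0642 recovery group was kept for 24 h in methionine-free medium with UNC0642 and then for 24 h in methionine-replete medium without it. UNC0642 is an inhibitor of the histone methyltransferases EHMT1 (GLP) and EHMT2 (G9a), which methylate histone H3 at lysine 9. The DMSO recovery group, which the labels name as restriction recovery with DMSO in place of the inhibitor, had the same 24 h and 24 h in the 2 media. The 0 h group carries no treatment beyond its time, and its label does not say whether the cells were taken before the restriction or at its end. All 3 groups are the same cell line in serum-supplemented RPMI-1640, and the dose of UNC0642 is not given in the sources used here.

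The 3 subfamilies bind chromatin in different ways. HMGA proteins hold the minor groove of AT-rich DNA through AT hooks. HMGB proteins bend DNA with HMG boxes, and HMGB1 also acts outside the cell as a damage signal. HMGN proteins bind the nucleosome core itself, where they compete with linker histone H1 and loosen compaction. HMGA1, HMGA2 and HMGB2 are known to be high in proliferating and embryonic cells and are often raised in carcinomas.

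HMGN2 and HMGN4 encode closely related nucleosome-binding proteins, yet their transcripts did not move together. Their coding sequences are shown because their likeness bears on whether reads of the pair can be told apart. They come from GENCODE 29 on GRCh38, are 273 bases each, and differ at 37 bases (86.4% identity), printed in capitals.
HMGN2 coding sequence: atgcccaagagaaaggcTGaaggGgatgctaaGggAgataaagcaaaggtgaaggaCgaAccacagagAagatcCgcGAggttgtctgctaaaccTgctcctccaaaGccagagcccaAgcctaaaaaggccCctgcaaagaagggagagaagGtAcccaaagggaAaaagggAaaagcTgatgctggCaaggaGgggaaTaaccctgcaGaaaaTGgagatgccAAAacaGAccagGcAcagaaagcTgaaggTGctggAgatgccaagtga
HMGN4 coding sequence: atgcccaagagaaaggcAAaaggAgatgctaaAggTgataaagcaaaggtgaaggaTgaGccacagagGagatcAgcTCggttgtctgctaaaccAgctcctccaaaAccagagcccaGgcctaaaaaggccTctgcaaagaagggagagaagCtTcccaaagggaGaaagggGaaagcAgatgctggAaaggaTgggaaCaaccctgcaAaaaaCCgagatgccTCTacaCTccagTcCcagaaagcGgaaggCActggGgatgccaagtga
The longest run without a difference was 20 bases, and no 50-base stretch of the GENCODE 29 transcripts was shared between any 2 of the 10 genes. Of the distinct 50-base stretches of HMGN2, 34.24% also occur in another annotated gene, against 17.99% for HMGN1, 15.45% for HMGB1, 7.59% for HMGA1, 3.82% for HMGB3, 0.89% for HMGB2 and 0.12% for HMGA2. HMGN3, HMGN4 and HMGN5 shared none. GENCODE 29 lists 48 pseudogenes named after HMGB1, 36 after HMGN2, 31 after HMGN1, 29 after HMGB3 and 8 after HMGA1. How the authors' counting split reads between a gene and such copies is not given in the sources used here. The shares are those of the GENCODE 29 transcripts, which are not the gene models behind the counts. HMGN2 and HMGN4 had 1142 and 1176 distinct stretches there, against deposited lengths of 1969 and 1968 bases. The levels of these 5 genes are therefore uncertain by an amount not known here.

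The 300-base promoters of 3 genes that were lower after recovery and of HMGN4, which was not, are shown so that the sequence before each gene can be read beside its values. They run from 250 bases before to 50 bases after the first start listed in RefSeq (GRCh38.p14), 5′ to 3′ on the strand of the gene, with the CCAAT box (CCAAT, or ATTGG on the other strand) in capitals.
HMGN2 (chr1:26472190-26472489, plus strand): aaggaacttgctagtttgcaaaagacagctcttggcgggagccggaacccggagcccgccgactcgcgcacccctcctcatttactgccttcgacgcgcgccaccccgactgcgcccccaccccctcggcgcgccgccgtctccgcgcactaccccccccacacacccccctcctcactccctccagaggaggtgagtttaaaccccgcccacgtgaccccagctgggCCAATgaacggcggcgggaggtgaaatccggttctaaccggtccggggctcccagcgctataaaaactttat
HMGN1 (chr21:39349039-39349338, minus strand): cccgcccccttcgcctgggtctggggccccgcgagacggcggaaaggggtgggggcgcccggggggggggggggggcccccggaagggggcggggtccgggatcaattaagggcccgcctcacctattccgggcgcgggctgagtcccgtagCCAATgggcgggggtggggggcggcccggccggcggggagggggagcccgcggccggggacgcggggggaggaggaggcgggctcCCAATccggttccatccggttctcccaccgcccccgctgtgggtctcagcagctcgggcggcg
HMGB1 (chr13:30465887-30466186, minus strand): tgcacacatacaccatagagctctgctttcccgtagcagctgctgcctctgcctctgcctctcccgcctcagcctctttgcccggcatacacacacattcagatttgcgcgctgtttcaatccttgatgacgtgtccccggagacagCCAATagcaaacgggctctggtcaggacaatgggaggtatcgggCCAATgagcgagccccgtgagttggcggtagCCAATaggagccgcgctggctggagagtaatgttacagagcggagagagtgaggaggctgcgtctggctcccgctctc
HMGN4 (chr6:26538116-26538415, plus strand): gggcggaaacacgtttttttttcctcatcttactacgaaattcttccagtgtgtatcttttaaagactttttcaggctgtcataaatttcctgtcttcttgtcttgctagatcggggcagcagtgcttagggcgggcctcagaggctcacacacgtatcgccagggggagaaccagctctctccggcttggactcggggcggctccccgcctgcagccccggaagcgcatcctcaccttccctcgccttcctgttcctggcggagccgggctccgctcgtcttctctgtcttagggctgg
Promoters were matched for 8 of the 10 genes, with 12 annotated starts in all. HMGA2 and HMGB2 were not among them. A CCAAT box, the motif of the factor NF-Y, was present in 8 of these 12 promoters, from 6 of the 8 genes, and in 34.6% of all 35116 promoters of the same length. The first HMGB1 start had 3 matches, whose first bases lay at -103, -59 and -28 from the start, and the first HMGB3 start also had 3, while 3.3% of all promoters had 3 or more. HMGN1 had matches at -98 and -13, HMGN3 at -95 and -59, and HMGN2 at -22. HMGN4 and HMGN5 held none. A match says only that the letters are there, and its relation to the values was not tested. HMGB3 and HMGA1, not called against 0 h and not among the promoters printed, also held matches. Those of HMGA1 lay at 39, after its first start, and at -146 from its second. The GC box GGGCGG, the motif of SP1, was found on either strand in 8 of the 12 promoters, from 6 genes, and in 45.0% of all promoters. The E-box CACGTG was found in 1 of the 12 promoters, that of HMGN2, where it lies just before the CCAAT box, and in 7.3% of all promoters. The cell-cycle element TTTGAA was found in 2 of the 12 promoters, of HMGB1 (at its second start) and HMGB3, and in 15.2% of all promoters. The E2F-type letters TTTNNCGC were in 0 of the 12 promoters and in 6.9% of all promoters.

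The libraries held 14658082 to 20179847 rounded expected counts (RSEM's estimates of the reads of each gene), and the biological coefficient of variation over all genes was 3.44%. They fell into a class with a gap of 101 to 106 bases between gene length and effective length (5 libraries) and a class with a gap of 120 to 127 bases (7 libraries), and each group held both. The summed epithelial markers (EPCAM, KRT8, KRT18, KRT19, CDH1, CDX2, VIL1 and LGALS4) were at 5574 to 5789 CPM (counts scaled to library size with TMM factors) in UNC0642 recovery, 5558 to 5710 CPM in DMSO recovery and 4936 to 5051 CPM at 0 h. KRT8 alone averaged 2922 CPM in UNC0642 recovery, 2859 CPM in DMSO recovery and 2482 CPM at 0 h. EPCAM went the other way, at 294, 310 and 333 CPM in the same groups. Of the 6 tested genes of this list, 5 rose and 1, EPCAM, fell in each recovery group against 0 h by edgeR. VIL1 and LGALS4 were at or near 0 in all 12 libraries. Summed markers of blood, fibroblasts and endothelium were at 28.2 to 36.0, 27.5 to 35.7 and 21.3 to 43.5 CPM in UNC0642 recovery, DMSO recovery and 0 h. Most of that sum was COL1A1, and PTPRC, PECAM1 and CDH5 were at or near 0. Of the 7 tested genes of this list, 1 rose and 2 fell in UNC0642 recovery and 2 rose and 5 fell in DMSO recovery against 0 h by edgeR (2 fell there by limma-voom and by DESeq2). EHMT1, a target of UNC0642, was at 84.4 ± 2.59 CPM in UNC0642 recovery, 84.5 ± 4.29 CPM in DMSO recovery and 92.7 ± 1.84 CPM at 0 h (SD, n = 4). EHMT2 was at 124 ± 1.44, 125 ± 4.78 and 128 ± 4.75 CPM in the same groups.

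Levels of different genes are compared here in the deposited FPKM (fragments scaled to gene length and library size). Their order therefore rests on the deposited gene lengths. HMGA1 was by far the most abundant of the 10 genes. It averaged 1335 ± 27.1 FPKM in UNC0642 recovery, 1403 ± 36.3 FPKM in DMSO recovery and 1316 ± 13.3 FPKM at 0 h (SD, n = 4 each), and its ranks among the 12741 tested genes were 64, 62 and 75 from the top. HMGB1, HMGN2, HMGB2 and HMGN1 followed at 0 h, with 383 ± 7.004, 363 ± 7.22, 345 ± 11.4 and 319 ± 4.56 FPKM. HMGA2, the fetal relative of HMGA1, was at 73.6 ± 0.420 FPKM at 0 h. HMGN3 at 56.3 ± 1.97, HMGB3 at 44.8 ± 0.962, HMGN4 at 35.7 ± 2.41 and HMGN5 at 2.37 ± 0.213 FPKM completed the order at 0 h. Neighbours in that order did not overlap over the 4 libraries, except HMGN2 and HMGB2.

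**Figure D1:**
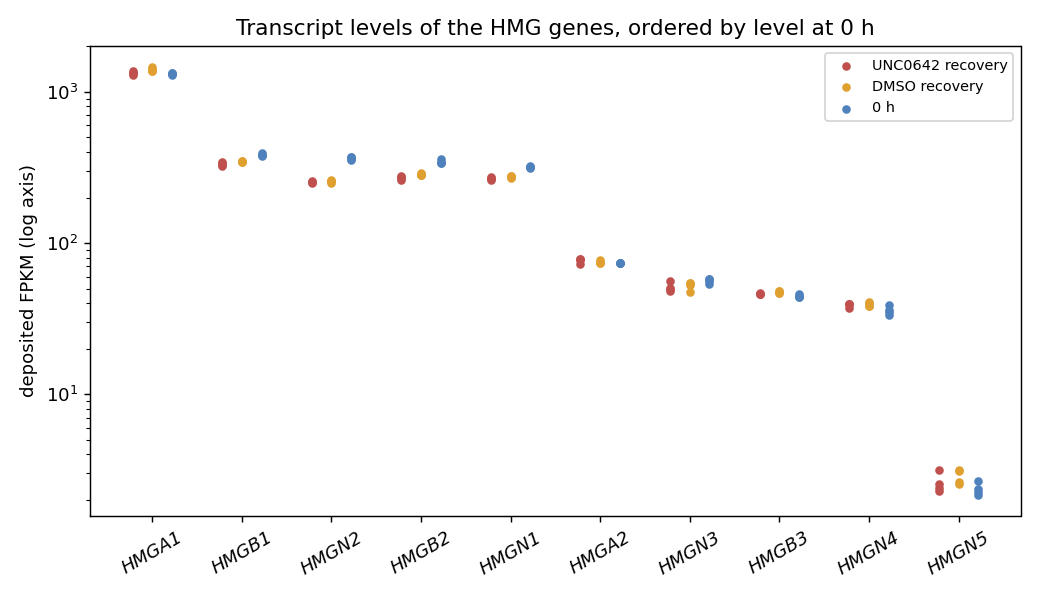
Deposited FPKM (log axis) of the 10 HMG genes in each library, with the genes ordered by their mean at 0 h and the groups drawn from left to right as UNC0642 recovery, DMSO recovery and 0 h. HMGA1 lies at 1297 FPKM or above in all 12 libraries and HMGN5 at 3.16 FPKM or below, and HMGN2 moves below HMGB2 and HMGN1 in both recovery groups.

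After recovery the order by deposited FPKM changed at 1 point. HMGN2 stood below HMGB2 and HMGN1 in both recovery groups, and above both at 0 h. HMGN2 averaged 253 ± 3.49 FPKM in UNC0642 recovery and 257 ± 5.50 FPKM in DMSO recovery, where HMGN1 had 266 ± 5.64 and 275 ± 4.06 FPKM, and the genes did not overlap in either group. HMGB2 and HMGN1 overlapped in UNC0642 recovery and not in DMSO recovery, and HMGN3 and HMGB3 overlapped in DMSO recovery and not in UNC0642 recovery. The make-up of the family therefore differed between groups. HMGA1 held 49.9% of the summed HMG FPKM in UNC0642 recovery, 50.5% in DMSO recovery and 44.8% at 0 h. The 5 HMGN genes together held 22.9% ± 0.130, 22.5% ± 0.352 and 26.4% ± 0.259 in the same groups, and the 3 HMGB genes 24.3% ± 0.478, 24.3% ± 0.247 and 26.3% ± 0.437 (SD, n = 4). The summed FPKM of the family was 2673 ± 33.7 in UNC0642 recovery, 2781 ± 41.2 in DMSO recovery and 2938 ± 9.64 at 0 h. The order, the shares and the sums rest on the deposited lengths, 1969 bases for HMGN2 and 1304 bases for HMGN1. The GENCODE transcripts of these genes held 1142 and 1334 distinct stretches. A shorter HMGN2 model would raise its FPKM in every group, so the crossing depends on the gene model. Other lengths were not tested.

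Against 0 h, 5 of the 10 genes were lower in both recovery groups: HMGN2, HMGB2, HMGN1, HMGB1 and HMGN3. By edgeR, limma-voom and DESeq2, 0 were called higher. At an unadjusted p under 0.05, 0 were higher by edgeR and 1 by limma-voom, HMGA1 in DMSO recovery. A gene is called here at an adjusted p under 0.05 in edgeR's quasi-likelihood test over all 12741 genes. In UNC0642 recovery against 0 h, 23.6% of all genes were called lower and 23.4% higher, and in DMSO recovery against 0 h, 21.7% lower and 22.4% higher. Groups did not overlap, with recovery lower, for 20.1% of all genes in UNC0642 recovery and 19.0% in DMSO recovery, and for 5 of the 10 members in each. The choice of the family rests on these falls, so nothing is read from the counts. The median log2 fold change of the 10 genes was -0.12 for UNC0642 recovery and -0.09 for DMSO recovery, against 0.01 over all genes in both. Both comparisons use the same 0 h libraries. In bulk RNA, less RNA per cell and fewer cells that express a gene cannot be told apart.

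**Figure D2:**
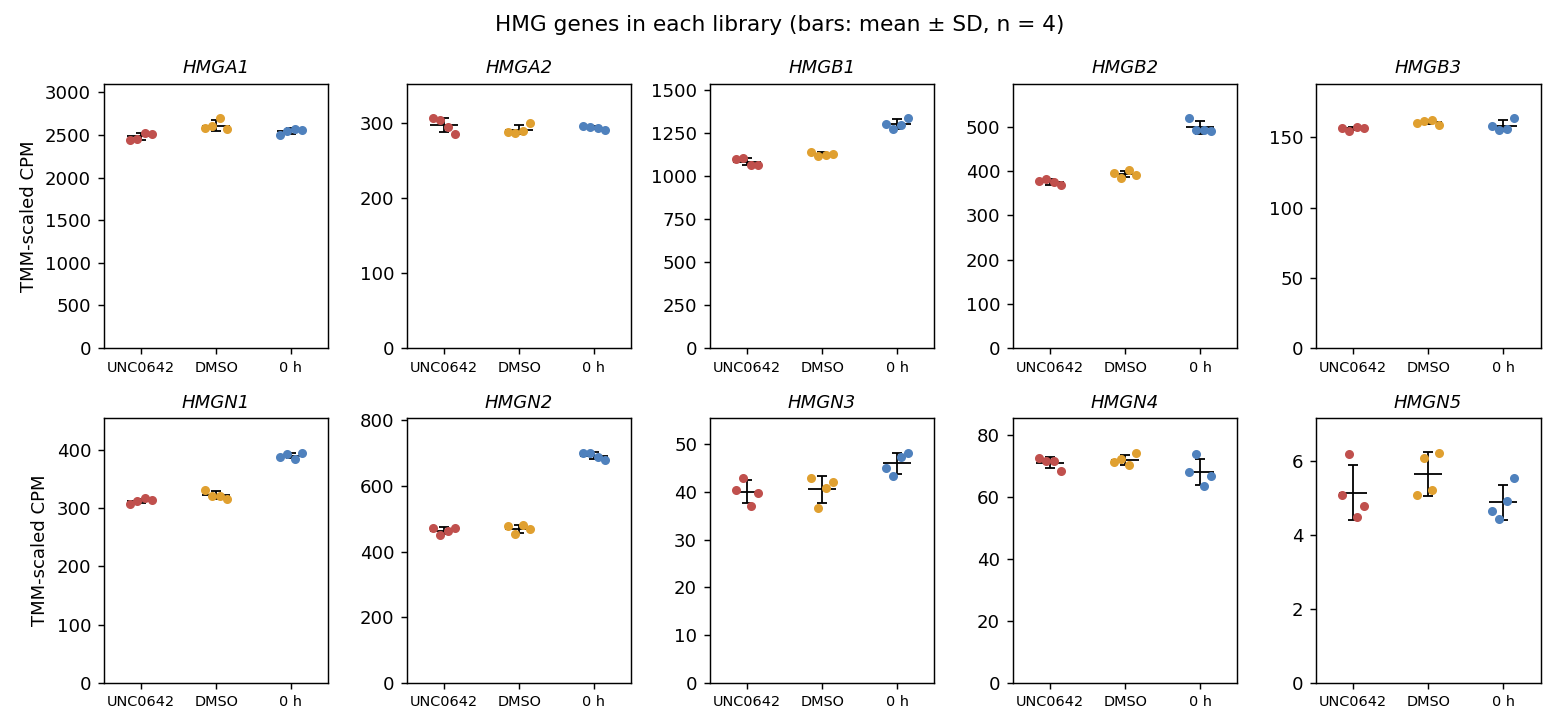
CPM, scaled with TMM factors, of each HMG gene in each library (points), with the mean and SD over the 4 libraries of a group (bars), for UNC0642 recovery, DMSO recovery and 0 h. HMGN2, HMGB2, HMGN1 and HMGB1 lie below all 0 h libraries in both recovery groups, by margins wider than the spread within groups, while HMGA1, HMGA2, HMGB3 and HMGN4 keep near their 0 h level.

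HMGA1 encodes the AT-hook protein of proliferating cells. It had 2436, 2457, 2524 and 2514 CPM in the UNC0642 libraries, 2577, 2601, 2698 and 2566 CPM in the DMSO libraries and 2499, 2550, 2571 and 2559 CPM at 0 h. The UNC0642 libraries all lay below the DMSO libraries, and the 0 h libraries overlapped both. The log2 fold change was -0.04 ± 0.02 for UNC0642 recovery against 0 h and 0.04 ± 0.02 for DMSO recovery against 0 h (SE from the fit). These values depended on the scaling: UNC0642 recovery was at 0.02 with library totals alone, 0.02 on log2(FPKM + 1) and -0.07 with a correction for gene length. DMSO recovery was at 0.09, 0.09 and 0.01 in the same settings.

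HMGA2 encodes an AT-hook protein of embryonic and tumour cells, under control of let-7 microRNAs. It had 306.1, 303.8, 294.6 and 285.4 CPM with UNC0642, 287.5, 286.2, 289.1 and 299.1 CPM with DMSO, and 295.1, 294.3, 293.4 and 290.8 CPM at 0 h. The 3 groups overlapped, with UNC0642 spanning the widest range. The HMGA1 to HMGA2 ratio of FPKM was 17.4 ± 0.794 in UNC0642 recovery, 18.8 ± 0.620 in DMSO recovery and 17.9 ± 0.269 at 0 h.

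HMGB1, the most abundant HMG-box gene here, was lower after recovery. It had 1103, 1104, 1068 and 1067 CPM with UNC0642, 1141, 1120, 1125 and 1132 CPM with DMSO, and 1306, 1272, 1298 and 1338 CPM at 0 h. All 8 recovery libraries lay below all 4 libraries at 0 h, and the UNC0642 libraries lay below the DMSO libraries. Its log2 fold change was -0.26 ± 0.02 for UNC0642 recovery and -0.21 ± 0.02 for DMSO recovery against 0 h, so that it fell by 16.7% and fell by 13.4%.

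HMGB2, whose protein is bound to chromatin in dividing cells, was lower by more. It had 378, 382.1, 375.2 and 367.3 CPM with UNC0642, 395.5, 384.9, 401.3 and 390.9 CPM with DMSO, and 519.4, 491.5, 492.6 and 489.7 CPM at 0 h. No recovery library reached the lowest 0 h library, and the first 0 h library stood above the other 3. The log2 fold change was -0.41 ± 0.02 for UNC0642 recovery and -0.34 ± 0.02 for DMSO recovery against 0 h. Without that 0 h library they were -0.39 and -0.32.

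HMGB3, the X-linked member of the HMG-box subfamily, did not follow its relatives. It had 156.7, 154.6, 157.6 and 156.6 CPM with UNC0642, 160.5, 161.6, 162.7 and 158.9 CPM with DMSO, and 158, 155.5, 156 and 163.7 CPM at 0 h. The 0 h range covered most of both recovery groups. The HMGB2 to HMGB3 ratio of FPKM was 5.88 ± 0.149 in UNC0642 recovery, 6.001 ± 0.0920 in DMSO recovery and 7.71 ± 0.323 at 0 h, and the HMGB1 to HMGB2 ratio was 1.23 ± 0.0182, 1.22 ± 0.0221 and 1.11 ± 0.0431.

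HMGN2, which encodes a nucleosome-binding protein expressed in most tissues, was lower by the widest margin in the family. It had 472.6, 449.2, 461.9 and 470.2 CPM with UNC0642, 477, 453.5, 480.5 and 467.1 CPM with DMSO, and 700.4, 698.9, 689 and 678.9 CPM at 0 h. The gap between the highest recovery library and the lowest 0 h library was far wider than the spread within any group. The log2 fold change was -0.58 ± 0.02 for UNC0642 recovery, where HMGN2 fell by 33.0%, and -0.56 ± 0.02 for DMSO recovery, where it fell by 32.1%. Among all tested genes, 168 (1.32%) had a lower fold change than HMGN2 in UNC0642 recovery and 122 (0.958%) in DMSO recovery. The family was chosen by falls in these comparisons, so this place is a description and nothing is read from it.

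HMGN1, whose gene lies on chromosome 21, followed with a smaller fall. It had 307.8, 311.8, 317 and 314.6 CPM with UNC0642, 331.5, 320.5, 321 and 315.1 CPM with DMSO, and 388.3, 392.9, 385.4 and 395.2 CPM at 0 h. The recovery groups overlapped each other and neither reached 0 h. Its log2 fold change was -0.32 ± 0.02 for UNC0642 recovery and -0.28 ± 0.02 for DMSO recovery. The HMGN2 to HMGN1 ratio of FPKM was 0.951 ± 0.0302, 0.934 ± 0.0239 and 1.14 ± 0.0222 in UNC0642 recovery, DMSO recovery and 0 h.

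HMGN3, which is best known from brain and endocrine tissue, had a far lower count than HMGN2 and varied more between libraries. It had 40.39, 42.99, 37.05 and 39.72 CPM with UNC0642, 42.86, 36.54, 40.81 and 42.17 CPM with DMSO, and 45.09, 43.27, 47.35 and 48.17 CPM at 0 h. The recovery libraries lay below those at 0 h by a narrow margin. The log2 fold change was -0.20 ± 0.06 for UNC0642 recovery and -0.17 ± 0.06 for DMSO recovery. Over 29 other settings the UNC0642 value ranged between -0.25 and -0.14 and the DMSO value between -0.28 and -0.11, with -0.13 without DMSO recovery replicate 2.

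HMGN4, a gene without introns in its coding sequence that resembles HMGN2, did not follow it. It had 72.56, 71.62, 71.83 and 68.5 CPM with UNC0642, 71.28, 72.29, 70.26 and 74.33 CPM with DMSO, and 68.05, 73.93, 63.69 and 66.82 CPM at 0 h. The groups overlapped, with the second 0 h library within the range of the recovery libraries. The log2 fold change was 0.06 ± 0.04 for UNC0642 recovery and 0.08 ± 0.04 for DMSO recovery, and without the second 0 h library the DMSO value was 0.12. The HMGN2 to HMGN4 ratio of FPKM was 6.52 ± 0.251 in UNC0642 recovery, 6.52 ± 0.287 in DMSO recovery and 10.2 ± 0.562 at 0 h.

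HMGN5, an X-linked member with a long acidic tail, was the lowest of the 10 genes in every group. It had 5.098, 6.197, 4.493 and 4.787 CPM with UNC0642, 5.08, 6.09, 5.227 and 6.227 CPM with DMSO, and 4.654, 4.445, 4.937 and 5.539 CPM at 0 h. These rest on 71 to 127 expected counts per library, and the groups overlapped. Its log2 fold change was 0.08 ± 0.14 for UNC0642 recovery and 0.22 ± 0.13 for DMSO recovery, with a larger error than any other member.

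HMGN2 and HMGB1 stood apart from 0 h within each length class of libraries. In the class with the short gap, HMGN2 averaged 471 CPM with UNC0642 (2 libraries), 477 CPM with DMSO (1 library) and 684 CPM at 0 h (2 libraries), and in the class with the long gap 456, 467 and 700 CPM (2, 3 and 2 libraries). HMGB1 averaged 1085, 1141 and 1318 CPM in the short class and 1086, 1126 and 1289 CPM in the long class. The split of calls over all genes depended on the scaling: of the genes called in DMSO recovery against 0 h, 50.8% were higher, against 67.5% with library totals alone and 33.0% with a correction for gene length. Over 29 alternatives HMGN2 ranged between -0.62 and -0.52 with UNC0642 and between -0.59 and -0.50 with DMSO against 0 h. Leaving out the 6 libraries that had the fibroblast gene COL1A2 above 1 CPM kept only 1 library at 0 h, so these values have no spread at 0 h. HMGN2 was then at -0.56 with UNC0642 and -0.55 with DMSO, HMGB2 at -0.37 and -0.33, and HMGN3 at -0.22 and -0.28.

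**Figure D3:**
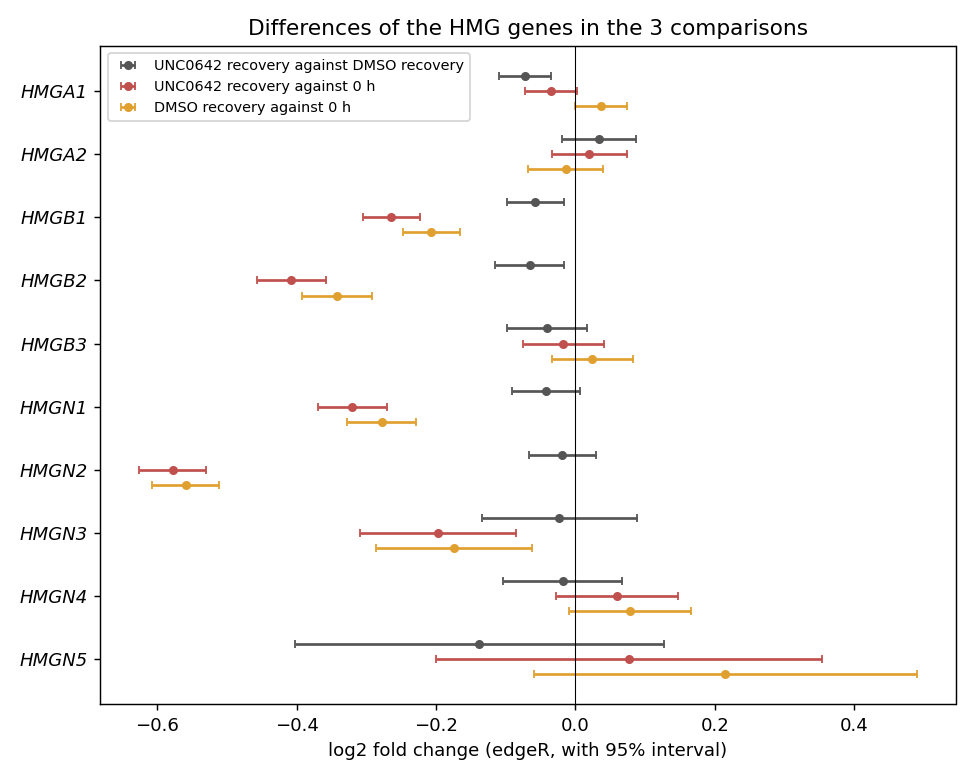
Log2 fold changes (points) with 95% intervals from the edgeR fit for each HMG gene in UNC0642 recovery against DMSO recovery, UNC0642 recovery against 0 h and DMSO recovery against 0 h. HMGN2 lies between -0.63 and -0.51 in both comparisons with 0 h including its intervals, and the values of UNC0642 against DMSO recovery lie near 0, with HMGA1 at -0.07.

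The comparison of UNC0642 with DMSO recovery asks whether transcripts of recovered cells differed by the inhibitor given during the restriction. HMGA1 fell and was the 1 member called, with a log2 fold change of -0.07 ± 0.02 (95% interval -0.11 to -0.04, edgeR adjusted p = 0.0151, lower in 4 of 4 libraries than every DMSO library). That is 4.89% less, at 2483 ± 43.0 CPM in UNC0642 recovery and 2610 ± 59.9 CPM in DMSO recovery (SD, n = 4). Over all genes, 2.53% were called lower and 2.06% higher in this comparison. HMGA1 was called in 23 of 29 alternatives. The 6 others include the short class, in which DMSO recovery kept 1 library. Outside that class the adjusted p of the edgeR, limma and DESeq2 tests lay between 0.00231 and 0.0979. The call was lost without UNC0642 recovery replicate 1 (edgeR adjusted p = 0.0698) and without DMSO recovery replicate 3 (edgeR adjusted p = 0.0972). Within the long class the value was -0.07, not called, and within the short class, with 1 DMSO library, it was -0.06. On log2(FPKM + 1) the value was -0.07, also not called by limma. Without the 6 libraries with COL1A2 above 1 CPM, which kept 1 library at 0 h, it was -0.10.

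The other 9 members were not called, and 3 members were under an unadjusted p of 0.05: HMGA1, HMGB1 and HMGB2. HMGB1 had a log2 fold change of -0.06 ± 0.02 (95% interval -0.10 to -0.02, edgeR adjusted p = 0.0987) and HMGB2 of -0.07 ± 0.02 (95% interval -0.12 to -0.02, edgeR adjusted p = 0.130). HMGB3 was at -0.04 ± 0.03 (edgeR adjusted p = 0.497). The libraries of HMGA1, HMGB1, HMGB2 and HMGB3 were all lower with UNC0642 than with DMSO, and such a separation downward was found in 5.42% of all genes. HMGB2 was called under 1 of 29 alternatives, the correction for gene length. By edgeR, limma-voom and DESeq2, 0 were called higher, and by edgeR 0 had an unadjusted p under 0.05 in that direction.

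For the nucleosome-binding members, the intervals give the size of difference that the data allow. HMGN2 was at -0.02 ± 0.02 (95% interval -0.07 to 0.03, edgeR adjusted p = 0.754), HMGN1 at -0.04 ± 0.02 (95% interval -0.09 to 0.01) and HMGN4 at -0.02 ± 0.04 (95% interval -0.10 to 0.07). HMGN3 was at -0.02 ± 0.05 (95% interval -0.13 to 0.09). The interval of HMGN5 was the widest, -0.40 to 0.13 around -0.14 ± 0.13. HMGA2 alone had a value above 0, at 0.03 ± 0.03 (95% interval -0.02 to 0.09, edgeR adjusted p = 0.547). The median of the 10 genes was -0.04, and 9 of 10 were below 0, where 50.6% of all genes were.

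RSEM reports for each gene a length that is the mean of its transcripts weighted by their estimated abundance, so a shift in that length reflects a change in the estimated mix of transcripts. HMGA1, HMGA2, HMGB2 and HMGN3 have more than 1 transcript in the deposited tables (6, 2, 3 and 2). The HMGA1 length was 2000.1, 1999.8, 1997.6 and 2000.6 bases with UNC0642, 2000.6, 2000.5, 1999.9 and 2000.4 bases with DMSO, and 1994.7, 1993.3, 1994.2 and 1991.9 bases at 0 h. Both recovery groups lay above 0 h without overlap, by 6.01 bases with UNC0642 and by 6.81 bases with DMSO. Of 4919 tested genes with several transcripts, 6.02% did not overlap in UNC0642 recovery against 0 h and 6.14% in DMSO recovery against 0 h. The HMGA2 length was 4049.4, 4074.5, 3985 and 4064.7 bases with UNC0642, 4062.2, 4051.5, 4015.9 and 4044.9 bases with DMSO, and 3989.4, 4017.8, 3993.9 and 3963.3 bases at 0 h. Both recovery groups overlapped 0 h, in each case through replicate 3. HMGB2 averaged 1519 bases in all 3 groups and HMGN3 906 bases. Between UNC0642 and DMSO recovery, where 2.97% of those genes did not overlap, 4 genes were compared by an exact two-sided permutation test of 4 against 4 libraries, whose smallest possible p is 0.0286. The differences were -0.80 bases for HMGA1 (exact permutation p = 0.314), -0.24 bases for HMGA2 (exact permutation p = 1), -0.09 bases for HMGB2 (exact permutation p = 0.8) and 0.14 bases for HMGN3 (exact permutation p = 0.971).

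**Figure D4:**
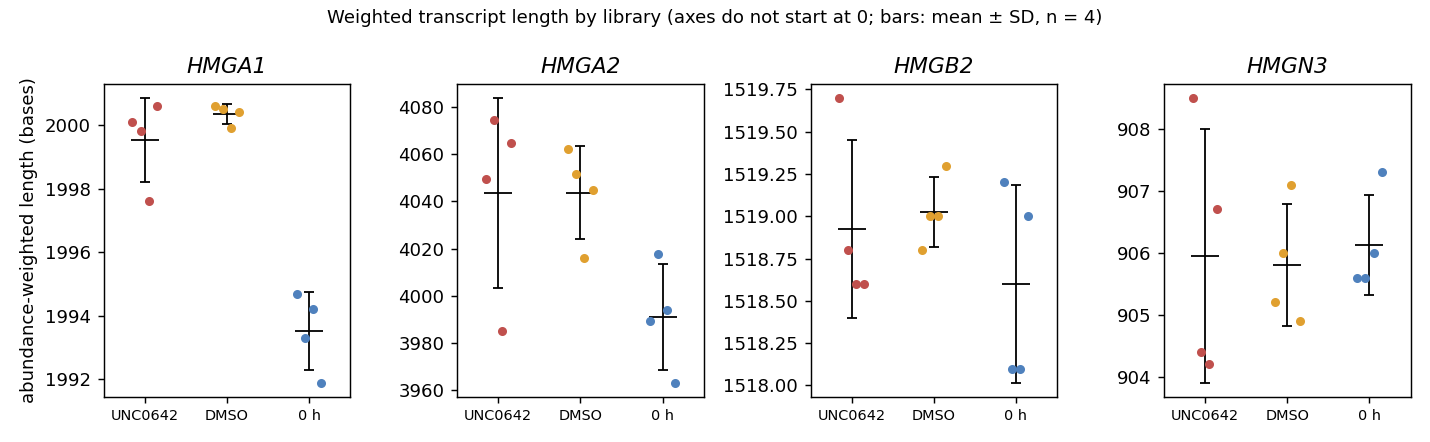
Abundance-weighted gene length in bases, as deposited, of the 4 HMG genes with several transcripts, for each library (points) with the mean and SD of the group (bars), in UNC0642 recovery, DMSO recovery and 0 h. HMGA1 lies between 1997.6 and 2000.6 bases in the 8 recovery libraries and between 1991.9 and 1994.7 bases at 0 h, while HMGB2 and HMGN3 show no such separation.

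Likeness of pattern was measured as the root mean square difference between log2 CPM profiles over the 12 libraries, each taken from its own mean. By this measure, genes that vary little lie close to each other whatever their pattern. The root mean square of a profile around its own mean was 0.0371 for HMGA1, 0.115 for HMGB1 and 0.270 for HMGN2. Within the family, HMGA1 and HMGB3 were closest (0.0273), then HMGB1 and HMGN1 (0.0426). HMGN2 was far from HMGN4 (0.308) and farthest from HMGN5 (0.372). Outside the family, genes were sought for the member of highest mean FPKM over all 12 libraries in each subfamily, which for HMGN was HMGN2 (291 FPKM, against 287 FPKM for HMGN1, the higher of the pair in both recovery groups). The genes closest to HMGA1 were EIF2AK1 (0.0175), MCM6 (0.0214) and EIF4B (0.0252). Those closest to HMGB1 were SUMO2 (0.0193), HNRNPC (0.0213) and RPL6 (0.0235), of which RPL6 encodes a ribosomal protein with many processed copies. Those closest to HMGN2 were RBM3 (0.0405), HSP90B1 (0.0555) and ATAD3B (0.0606). RBM3 encodes a cold-inducible RNA-binding protein and HSP90B1 a chaperone of the endoplasmic reticulum. Their log2 fold changes in DMSO recovery against 0 h were -0.50 ± 0.03, -0.45 ± 0.02 and -0.61 ± 0.04.

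Linker histones occupy the nucleosome site that HMGN proteins compete for. Of 7 such genes, 4 were tested, and of these 3 fell and 1 rose in each recovery group against 0 h (medians -0.43 with UNC0642 and -0.52 with DMSO). H1F0 was at 229 ± 5.43 CPM in UNC0642 recovery, 219 ± 9.26 CPM in DMSO recovery and 312 ± 11.4 CPM at 0 h, a log2 fold change of -0.45 ± 0.03 and -0.51 ± 0.03 against 0 h. H1FX was at 107 ± 5.15, 98.5 ± 1.152 and 143 ± 3.95 CPM, and HIST1H1E, a low gene, at 1.03 ± 0.370, 1.13 ± 0.383 and 2.34 ± 0.677 CPM. HIST1H1C went the other way, with 45.6 ± 3.03 CPM in UNC0642 recovery, 24.6 ± 1.41 CPM in DMSO recovery and 5.22 ± 0.344 CPM at 0 h. With UNC0642 against DMSO, HIST1H1C rose (0.89 ± 0.06, edgeR adjusted p = 3.13e-13) and H1FX rose (0.12 ± 0.04, edgeR adjusted p = 0.0417). The replication-dependent histone transcripts mostly lack a poly(A) tail, and how the RNA was selected is not given in the sources used here.

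Genes of other proteins that carry an HMG box were mixed against 0 h. Of 25 tested genes of 34, 7 rose and 8 fell in UNC0642 recovery against 0 h, and 8 rose and 5 fell in DMSO recovery against 0 h. In UNC0642 against DMSO recovery 4 fell, where 2.53% of all genes were called lower. In that comparison edgeR, limma-voom and DESeq2 called 0 of them higher, and 1 was higher at an unadjusted p under 0.05. SSRP1, the HMG-box subunit of the FACT complex, fell in both recovery groups (-0.25 ± 0.02 with UNC0642, -0.23 ± 0.02 with DMSO). SMARCE1, a subunit of the SWI/SNF remodeller, was at -0.03 ± 0.03 and -0.02 ± 0.03, neither called. HMG20B rose (0.13 ± 0.04 and 0.17 ± 0.04). The median of this list was -0.02 in each of the 3 comparisons.

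Among histone chaperones, 16 of 16 were tested, with 2 up and 6 down in UNC0642 recovery, and 3 up and 10 down in DMSO recovery against 0 h, with medians of -0.06 and -0.09. NPM1, which chaperones histones in the nucleolus, was -0.22 ± 0.02 with UNC0642 and -0.14 ± 0.02 with DMSO, and it also fell in UNC0642 against DMSO recovery (-0.08 ± 0.02, edgeR adjusted p = 0.0059), 1 of 4 chaperones that did, while 0 were called higher by edgeR, limma-voom and DESeq2 and 2 were higher at an unadjusted p under 0.05. Over all genes, 2.53% were called lower in UNC0642 against DMSO recovery. Against 0 h, NCL fell by 0.20 with UNC0642 and by 0.15 with DMSO on the log2 scale, and NPM3 by 0.20 and by 0.17. The SET complex, of which HMGB2 is a known component, had 5 of 6 genes down in each recovery group against 0 h, with medians of -0.22 with UNC0642 and -0.18 with DMSO, and 1 gene up in DMSO recovery. NME1 fell by 0.33 and 0.31, SET by 0.26 and 0.22, and ANP32B by 0.19 and 0.16, for UNC0642 and DMSO recovery. Of the 6 genes, 1 also fell in UNC0642 against DMSO recovery.

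Of the genes that act on HMGA2 messenger RNA, 9 were listed in the deposited data and 7 were tested. Of these, 4 fell in UNC0642 recovery and 3 in DMSO recovery against 0 h. In UNC0642 against DMSO, edgeR, limma-voom and DESeq2 called 0, and 2 were lower at an unadjusted p under 0.05. IGF2BP3 (-0.39 ± 0.04 with UNC0642, -0.32 ± 0.04 with DMSO), IGF2BP2 (-0.17 ± 0.03 and -0.10 ± 0.03) and EIF2C2, the Argonaute gene (-0.15 ± 0.05 and -0.23 ± 0.05), were lower, while the HMGA2 groups overlapped. Of the receptors and partners of HMGB1, 3 of 8 were tested. CD24 rose to 9.53 ± 0.332 CPM with UNC0642 and 9.46 ± 0.306 CPM with DMSO, against 6.76 ± 0.574 CPM at 0 h. AGER, the receptor RAGE, stayed at 2.70 ± 0.177, 2.51 ± 0.342 and 2.79 ± 0.799 CPM, and CXCR4 was at 0 to 0.793 CPM. The cell-cycle genes, which HMGB2 is known to accompany, gave 3 up and 8 down of 26 in UNC0642 recovery, 3 up and 9 down in DMSO recovery, and 1 up and 2 down in UNC0642 against DMSO. MCM7 fell (-0.23 ± 0.02 and -0.15 ± 0.02 against 0 h), PCNA was at 0.05 ± 0.03 (not called) and 0.09 ± 0.03 (higher in DMSO recovery), and TYMS at -0.10 ± 0.03 (called) and -0.06 ± 0.03 (not called). The median of the list was -0.02 with UNC0642 and -0.04 with DMSO. The part of the cell cycle in the HMGB2 values was not tested.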

How the data were processed

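Per the submitters' processing notes, RSEM 1.2.4 and Bowtie were used, with hg18 as the build. For strandedness, library selection and the role of each tool, the answer is not given in the sources used here; overlapping and antisense genes therefore cannot be told apart. The authors deposited, per gene and library, RSEM's expected counts, which can be fractional, FPKM, and lengths and effective lengths weighted by transcript abundance, per the file headers. TPM was not used here.

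Expected counts were rounded to whole numbers, filtered with filterByExpr (12741 of 18969 genes kept) and tested with edgeR 4.0.16 in R 4.3.3 (quasi-likelihood test, TMM factors, 1 fit of all 12 libraries with a mean per group, two-sided, Benjamini-Hochberg over all genes, threshold 0.05). CPM are scaled with the TMM factors, errors of fold changes are standard errors from the fit, and the fit was tested on simulated data. Lengths were compared by an exact permutation test over 70 arrangements (SciPy 1.17.1), and FPKM gave levels only. Promoters (RefSeq, GRCh38.p14) and transcripts (GENCODE 29) were matched by symbol, and no coordinate was taken to or from hg18.

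The members and the lists were chosen with earlier results of these data known. The genes named are the 10 members, the 3 genes closest to the member of highest mean FPKM over 12 libraries in each subfamily, the 3 most abundant of each list, called linker histones, EHMT1 and EHMT2, and the markers. The replicate numbers showed no pairing over all genes (correlation of deviations -0.103 to 0.045 over 12 same-number pairs). Whether libraries of the same number were handled together cannot be told from that. No library was a duplicate: over 18 pairs within groups, chi-square per degree of freedom lay between 2.03 and 3.57. Whether replicates were separate cultures is not labelled, and p-values then cover only the spread of these libraries, possibly technical. Alternatives were other size factors, filters, tools (limma 3.58.1, DESeq2 1.42.0), log2(FPKM + 1) and log2(FPKM + 0.1), offsets, length classes, a length correction, and libraries left out (each in turn, and the 6 with COL1A2 above 1 CPM).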

Additional observations from a re-analysis of the deposited data

Results flagged for a closer look

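HMGB2 in the first 0 h library was at 519.4 CPM, far from the other 3 libraries of its group, which lay between 489.7 and 492.6 CPM. Its gap to the nearest of them, divided by the range of the group, was over Dixon's 95% critical value for 4 samples. Of 42 groups of 4 values checked, 1 was so marked, and chance marks about 1 in 20 groups.

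The change of HMGA1 after recovery was called as different between the treatments. HMGA1 was lower with UNC0642 than with DMSO by a log2 difference of -0.07 (-0.0724), with edgeR adjusted p = 0.0151 over all genes, and lower in 4 of 4 libraries. This is the same test as given above, called in 23 of 29 alternatives. The call was lost without UNC0642 recovery replicate 1, or without DMSO recovery replicate 3. The change against 0 h was -0.04 with UNC0642 and 0.04 with DMSO, and both share the 0 h libraries.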

How the results depend on the processing

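Counts against 0 h describe the values that chose the family. The count of members called lower than 0 h was 5 in both groups. With the length correction it was 7 in UNC0642 recovery, with HMGA1 and HMGB3 added, and 6 in DMSO recovery, with HMGA2 added. HMGN3 was not called lower within the long class in either group. In DMSO recovery it was also not called with library totals alone (edgeR adjusted p = 0.0754) or without DMSO recovery replicate 2 (edgeR adjusted p = 0.0626). Nor was it called there on log2(FPKM + 1) or log2(FPKM + 0.1). Without the libraries with COL1A2 above 1 CPM, which kept 1 library at 0 h, HMGN3 was at -0.22 with UNC0642 and -0.28 with DMSO. The count of members called higher than 0 h was 0 in both groups. In UNC0642 recovery it was 2 with library totals alone and 1 on log2(FPKM + 1) and log2(FPKM + 0.1). In DMSO recovery it was 3 with library totals alone, 3 on log2(FPKM + 1) and 3 on log2(FPKM + 0.1), and 0 to 1 with each library left out. The count called lower with UNC0642 than with DMSO was 1. It was 0 to 1 with each library left out, 0 on log2(FPKM + 1), 0 on log2(FPKM + 0.1) and 0 within the long class. With the length correction it was 2, which added HMGB2 (edgeR adjusted p = 0.0292). Over all genes, 402 were called lower with that correction, against 322 in the main fit. Library totals and the FPKM unit lack the TMM factors, and the long class holds fewer libraries. With library totals alone, HMGA1 was still called lower with UNC0642 than with DMSO (-0.07, edgeR adjusted p = 0.0217). The cause of these moves was not tested.

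With the replicate number as a block, 1 member was called lower with UNC0642 than with DMSO (HMGA1, edgeR adjusted p = 0.00305), and 5 members were called lower than 0 h in each recovery group, the same counts as without it. No pairing by number was seen over all genes: 0 of 12 libraries correlated best with its own number. That cannot show whether libraries of the same number were handled together.

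Over all genes, calls between UNC0642 and DMSO recovery numbered 584, against 393 on log2(FPKM + 1), 375 on log2(FPKM + 0.1) and 271 within the long class. Calls against 0 h numbered 5990 in UNC0642 recovery and 5617 in DMSO recovery. Counts are left out for 2 settings in which a group kept 1 library. These are 0 h without the libraries with COL1A2 above 1 CPM, and DMSO recovery in the short class. Under every scaling tried, the all-gene median stayed within 0.1 (log2) of its main value. That limit is wider than the smaller member values. In DMSO recovery against 0 h the median moved by 0.05 with library totals alone and by -0.06 with the length correction. HMGA1 was at 0.04 there. Counting depth limits HMGN5, with 71 to 127 expected counts per library.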
